A study of Homo sapiens with 9 samples.

Results

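Death receptors are surface proteins of the tumour necrosis factor receptor family that pass a signal for apoptosis into the cell. FAS, TNFRSF10A, TNFRSF10B and TNFRSF1A are 4 such receptors, FADD is the adaptor that joins an engaged receptor to caspase-8 (CASP8), CFLAR encodes c-FLIP, which resembles caspase-8 and limits its activation, and caspase-9 (CASP9) starts the branch that runs through mitochondria. These 8 genes were described through every probe set that the platform annotation assigns to 1 of their symbols alone. That rule gave 34 probe sets, among 41091 probe sets of 19775 genes that have a single symbol. CFLAR has 14 of them, FAS 5, TNFRSF10B 4, TNFRSF10A, CASP8 and CASP9 3 each, and FADD and TNFRSF1A 1 each. No probe set assigned to several genes holds a symbol of the 8.

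The cells were U937, a human line from a histiocytic lymphoma that resembles early monocytes. A 15 min pulse of 44 °C or of 42 °C was followed by recovery at 37 °C for 0, 1, 3 or 6 h, and unheated cells held at 37 °C were the control. Total RNA of each of the 9 conditions was hybridised to 1 array, so there were 4 arrays at 44 °C, 4 at 42 °C and 1 control array. The labels give the control no time, and it stands for every recovery time, so heat and time in culture cannot be told apart at 1, 3 and 6 h. The series title names apoptosis induced by heat stress as its subject. Because no condition was repeated, no test was run, and no p-value is given. All values describe these 9 arrays.

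An engaged death receptor clusters, recruits FADD through their death domains and gathers caspase-8, which activates itself and then cleaves the caspases that dismantle the cell. c-FLIP binds at the same place and sets how much caspase-8 is activated. TNFRSF1A differs in that its first complex mostly signals for survival through NF-kB, and a later complex with FADD can kill. Caspase-9 is activated on APAF1 once mitochondria release cytochrome c.

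FAS and CASP8 were the members with probe sets 2-fold higher at 6 h after either temperature, so the bases before their starts are shown. RefSeq (GRCh38.p14) lists 14 promoters for 6 of the 8 genes. The 250 bases before each start were searched on both strands for GAANNTTC and TTCNNGAA, arrangements of repeats bound by heat shock factors, for TTCNNNGAA, the GAS element of interferon signalling, and for the core of the interferon-stimulated response element, a pair of GAAA repeats with 2 bases between them. The first 3 read the same on both strands. Capitals mark matches. The first sequence is the most upstream of the 3 FAS windows listed (chr10:88990548-88990797, plus strand), and the others are the 2 of 3 CASP8 windows that hold a match (chr2:201233213-201233462 and chr2:201257785-201258034, plus strand).
FAS: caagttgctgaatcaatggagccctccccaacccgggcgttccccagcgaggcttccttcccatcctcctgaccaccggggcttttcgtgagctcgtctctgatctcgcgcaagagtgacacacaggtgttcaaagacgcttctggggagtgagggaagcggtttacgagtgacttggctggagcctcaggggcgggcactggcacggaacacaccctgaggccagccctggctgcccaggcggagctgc
CASP8 upstream start: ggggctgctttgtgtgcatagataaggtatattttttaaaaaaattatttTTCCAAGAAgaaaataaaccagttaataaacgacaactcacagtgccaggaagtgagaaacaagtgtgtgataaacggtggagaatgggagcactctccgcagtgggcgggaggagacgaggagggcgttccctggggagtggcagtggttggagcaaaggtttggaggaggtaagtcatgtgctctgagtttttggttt
CASP8 downstream start: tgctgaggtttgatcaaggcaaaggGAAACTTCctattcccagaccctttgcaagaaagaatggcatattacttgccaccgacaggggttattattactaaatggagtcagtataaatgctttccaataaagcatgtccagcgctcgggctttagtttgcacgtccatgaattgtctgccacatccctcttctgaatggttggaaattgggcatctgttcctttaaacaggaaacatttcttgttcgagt
The printed CASP8 windows hold 1 match to TTCNNNGAA and 1 to GAANNTTC, and the third CASP8 window, further downstream, holds none of the 4 motifs. Of all 35116 promoters listed, 6.57% hold the first and 5.78% the second, so neither match is rare. CFLAR holds 1 match to TTCNNGAA (6.62% of all) and 1 to GAANNTTC in other windows. The 3 FAS windows hold none of the 4 motifs, and the response element core (3.02% of all) was found in 0 of the 14.

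A value below is a scaled signal, the deposited MAS5 signal after each array was brought to a 2% trimmed mean of 100. Signals under 12.6, the median of all values, were treated as 12.6, called the floor here, when a fold was taken. A probe set is said to have risen or fallen where it differed by 2-fold or more, a log2 fold of 1 in size. Signals of different probe sets depend on their probes and are not compared with each other. Before scaling the arrays had trimmed means between 101 and 211, and 48.3 to 52.6% of all values per array lay above the floor. As a yardstick in place of replicates, the control and the pair of arrays at 0 h were set against each other. The 95th percentile of the size of their log2 differences was 0.67 for probe sets with a mean signal of 432 to 873, 0.80 from 177 to 269, 0.91 from 80.6 to 118 and 1.24 from 25.2 to 37.4. This yardstick also holds any early response to heat. HSPA6, a stress-inducible HSP70, read 131, 3988, 6645 and 6587 at 0, 1, 3 and 6 h after 44 °C and 4751, 7245, 10652 and 4525 after 42 °C, against 138 in control cells. The 44 °C array at 0 h therefore had no rise of this marker while the 42 °C array at 0 h already did, which touches every comparison of the temperatures at 0 h.

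Of 12 monocyte markers measured, 8 were above the floor on all 9 arrays, among them LYZ, ITGAM, CSF1R and SPI1, while CD14, MPO and FCGR1A were at the floor on every array. Of 8 T cell markers 0 were above the floor on all arrays, and CD3E and CD3G were at the floor throughout. Of 5 B cell markers 2 (CD79A and PAX5) were above it on all arrays, with a sum over the list of 73.9 to 149.7 on heated arrays, against 88.2 in the control. Of 3 erythroid markers 1 (KLF1) was. The 9 markers of epithelium and fibroblasts summed to a signal of 53.7 to 342 on heated arrays, against 40.0 in the control. Of these, COL1A1 alone read 200 at 6 h after 44 °C and 268 at 6 h after 42 °C, against 8.37 in the control, and EPCAM, KRT19, CDH1, COL1A2 and COL3A1 were at the floor on all arrays. The part of these lists in the results below was not tested.

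Of the 34 probe sets of the 8 genes, 27 lay above the floor on all 9 arrays, 3 on some and 4 on none. At least 1 probe set of each gene was above the floor on all arrays. Those on none were 1 of TNFRSF10B, 1 of CASP8 and 2 of CFLAR. The map of folds over all member probe sets shows where the changes lie.

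**Figure D1:**
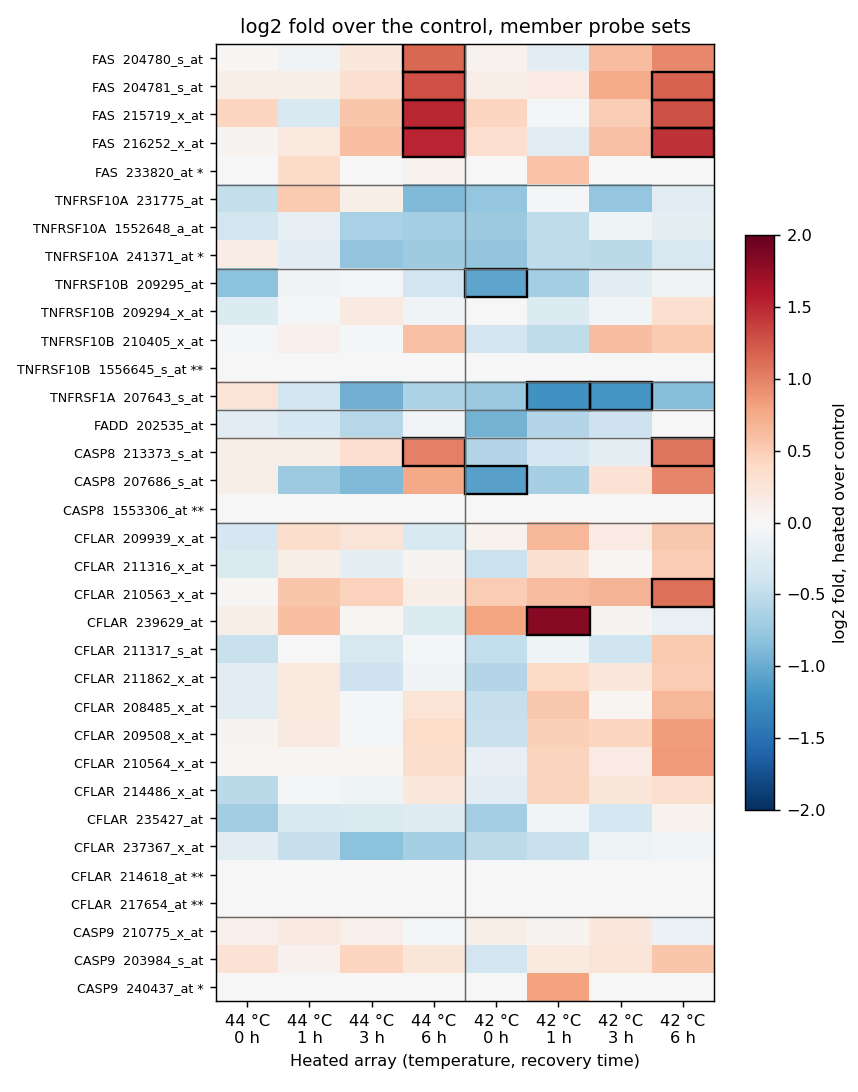
log2 fold over the control (colour) for the 34 probe sets of the 8 genes (rows) on the 8 heated arrays (columns, 44 °C left of 42 °C); a black frame marks a change of 2-fold or more, * a probe set above the floor on some arrays only and ** one above it on none. The frames of FAS stand in the columns of 6 h, and those of TNFRSF1A in the 42 °C columns of 1 and 3 h.

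FAS, the receptor for FAS ligand, was higher at 6 h of recovery after either temperature. Its brightest probe set (204780_s_at) read 97.3, 90.6, 110 and 210 at 0, 1, 3 and 6 h after 44 °C and 99.5, 80.9, 145 and 184 after 42 °C, against 94.7 in control cells. The arrays at 0 and 1 h lay near the control, those at 3 h above it, and those at 6 h were the highest of the 9. The rise at 6 h was 2.21-fold after 44 °C, and after 42 °C the log2 fold was 0.96, just short of 2-fold. The second probe set (204781_s_at) read 61.0, 60.3, 69.4 and 136 after 44 °C and 60.8, 61.8, 93.2 and 125 after 42 °C, against 55.4 in the control. It rose 2.45-fold and 2.26-fold at 6 h, after 44 and 42 °C.

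The remaining expressed FAS probe sets behaved alike. Probe set 215719_x_at rose 2.85-fold at 6 h after 44 °C and 2.43-fold at 6 h after 42 °C, and 216252_x_at rose 2.86-fold and 2.72-fold. All 4 therefore had their highest signal at 6 h on both courses. Their median log2 fold over the control was 1.40 at 6 h after 44 °C (range 1.15 to 1.52) and 1.23 after 42 °C (0.96 to 1.44). At 3 h the medians were 0.44 after 44 °C and 0.61 after 42 °C, and none of the 4 had passed 2-fold. The 4 probe sets read transcripts of 1 gene from the same RNA and are not replicates. Of them 215719_x_at and 216252_x_at, which had the largest folds at 6 h on both courses, carry the suffix _x_. This suffix, also found on TNFRSF10B, CFLAR and CASP9 sets, marks probes that may also match other transcripts. The fifth, 233820_at, was above the floor on 3 arrays, with a highest signal of 18.8, and gives no usable course.

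Each course also has its own starting array, which removes the shared control. Against the array at 0 h of the same temperature the 4 FAS probe sets had a median log2 fold of 1.13 at 6 h after 44 °C (1.09 to 1.47), with 4 of 4 past 2-fold. After 42 °C the median was 0.96 (0.84 to 1.10), with 2 of 4 past 2-fold and 0 of 4 after quantile normalisation (0.69 to 0.96). The difference between the temperatures at 6 h was small, with a median log2 fold of 0.15 for 44 °C over 42 °C and a range of 0.073 to 0.23, inside the yardstick at these signals.

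CASP8, the initiator caspase of the death receptor pathway, was also highest at 6 h. Probe set 213373_s_at read 251, 247, 290 and 460 at 0, 1, 3 and 6 h after 44 °C and 153, 180, 200 and 482 after 42 °C, against 228 in control cells. After 44 °C the first 3 arrays stayed near the control, while after 42 °C they lay below it. The rise at 6 h was 2.02-fold after 44 °C and 2.11-fold after 42 °C over the control. Over the array at 0 h of the same temperature it was 3.16-fold after 42 °C, and after 44 °C the log2 fold was 0.87.

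The other expressed CASP8 probe set also read highest at 6 h on both courses. Probe set 207686_s_at read 86.7, 48.4, 43.2 and 135 after 44 °C and 37.7, 50.2, 97.4 and 157 after 42 °C, against 79.7 in the control. After 42 °C it was lowest directly after heating, 2.11-fold under the control, and after 44 °C it was lowest at 3 h, with a log2 fold of -0.88. At 6 h it stood above the control on both courses, with log2 folds of 0.76 after 44 °C and 0.98 after 42 °C. The yardstick was 1.05 for mean signals of 55.0 to 80.6, the range of this set on the early arrays. The folds of -0.88, 0.76 and 0.98 lay inside it. The yardstick is built in part from the fall at 0 h after 42 °C, so it cannot judge that fall. From 0 to 6 h the probe set rose 4.16-fold after 42 °C, and after 44 °C the log2 fold was 0.64. The pair of probe sets thus shared the high signal at 6 h, and at 3 h after 44 °C they lay on opposite sides of the control, at 0.34 and -0.88. The third, 1553306_at, was at the floor on every array.

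**Figure D2:**
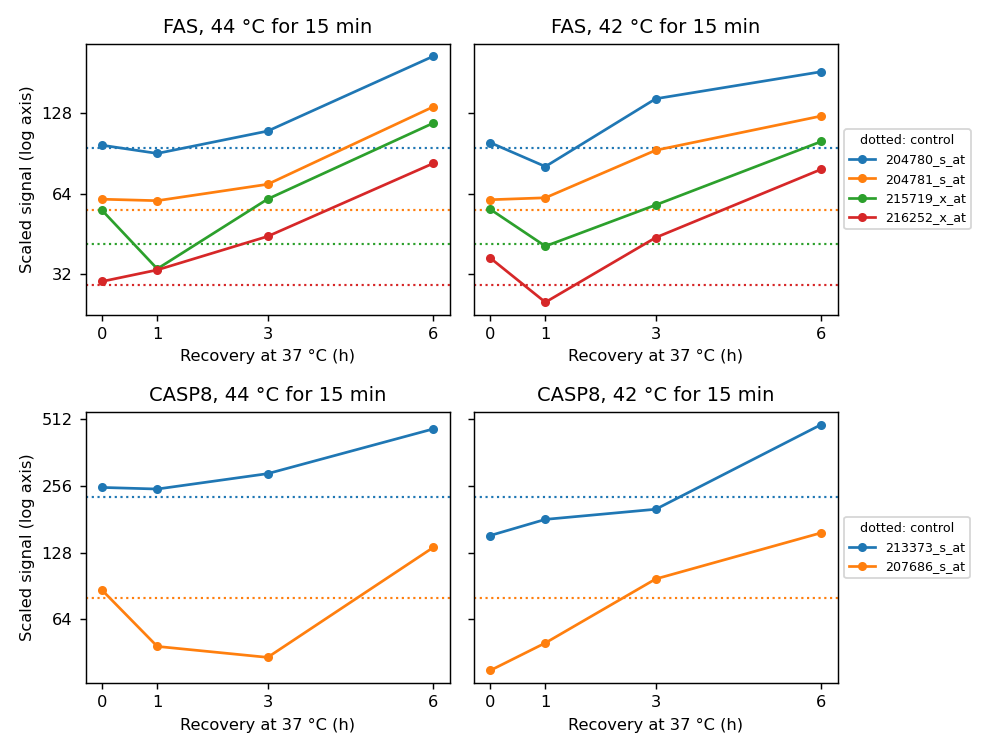
Scaled signal (log axis) against hours of recovery for the 4 FAS and 2 CASP8 probe sets above the floor on all arrays, after 44 °C (left) and 42 °C (right). Each line is 1 probe set, each point 1 array, and the dotted line of the same colour is the control; all 6 lines end above their control at 6 h.

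TNFRSF1A, the main receptor for TNF, was the member with the largest fall. Its single probe set (207643_s_at) read 935, 599, 395 and 496 at 0, 1, 3 and 6 h after 44 °C and 460, 332, 338 and 427 after 42 °C, against 773 in control cells. All 4 arrays at 42 °C and those at 1, 3 and 6 h after 44 °C lay below the control, and the 44 °C array at 0 h lay above it. After 42 °C it fell 2.33-fold at 1 h and 2.28-fold at 3 h. After 44 °C the lowest log2 fold was -0.97, at 3 h, so no array passed 2-fold. Counted from the array at 0 h of its own course it fell 2.37-fold by 3 h after 44 °C. In that comparison 2 of 34 member probe sets were lower (the other is of CASP8), where 2.36% of all probe sets were, and 0 were higher, where 1.90% were. At this brightness the yardstick was 0.67, which the folds at 1, 3 and 6 h after 42 °C (-1.22, -1.19 and -0.86) and at 3 h after 44 °C exceeded.

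TNFRSF10B, a receptor for the ligand TRAIL, was lower directly after heating by its brightest probe set. Probe set 209295_at read 218, 368, 377 and 299 after 44 °C and 185, 239, 329 and 366 after 42 °C, against 385 in the control. The lowest arrays were those at 0 h, with a 2.08-fold fall after 42 °C and a log2 fold of -0.82 after 44 °C. The dimmer sets did not share that size: at 0 h 209294_x_at and 210405_x_at had log2 folds of -0.27 and -0.018 after 44 °C and of -0.012 and -0.36 after 42 °C. No TNFRSF10B probe set rose at any time, and at 6 h the 3 expressed sets ran from -0.37 to 0.59 after 44 °C and from -0.077 to 0.52 after 42 °C.

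TNFRSF10A, the other signalling receptor for TRAIL, was dim. Its brightest probe set (231775_at) read 31.3, 62.4, 47.5 and 23.6 after 44 °C and 25.5, 43.1, 25.6 and 37.8 after 42 °C, against 43.7 in the control. The highest array was that at 1 h after 44 °C and the lowest that at 6 h after 44 °C. No probe set of the gene passed 2-fold over the control, and near these signals the yardstick was wider than 2-fold. For that reason a change of such size was not detectable in this gene.

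FADD, which couples the receptors to caspase-8, was lower at 0 h after 42 °C. Its single probe set (202535_at) read 242, 218, 188 and 269 after 44 °C and 145, 186, 211 and 282 after 42 °C, against 280 in control cells. Every heated array but that at 6 h after 42 °C lay below the control. The log2 fold at 0 h after 42 °C was -0.95, short of 2-fold, and at 6 h the values were -0.054 after 44 °C and 0.011 after 42 °C. The yardstick is built in part from that comparison at 0 h, so it cannot judge it.

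**Figure D3:**
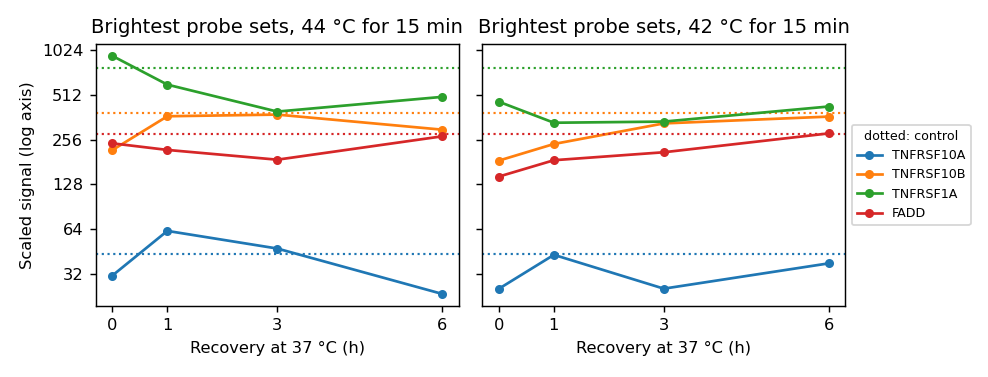
Scaled signal (log axis) against hours of recovery for the brightest probe set of TNFRSF1A, TNFRSF10B, TNFRSF10A and FADD, after 44 °C (left) and 42 °C (right). Points are single arrays and dotted lines the control; TNFRSF1A starts above its control after 44 °C (935 against 773) and below it after 42 °C (460).

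CFLAR, the inhibitor at the level of caspase-8, passed 2-fold over the control in 2 of its 12 expressed probe sets, both after 42 °C. Its brightest probe set (209939_x_at) read 94.2, 151, 142 and 96.0 after 44 °C and 125, 189, 132.9 and 172 after 42 °C, against 118 in control cells. The highest array was that at 1 h after 42 °C. Over the 12 expressed probe sets the median log2 fold over the control was -0.23, 0.15, -0.060 and 0.0048 at 0, 1, 3 and 6 h after 44 °C, and -0.44, 0.44, 0.11 and 0.52 after 42 °C. No CFLAR probe set rose or fell after 44 °C. After 42 °C 210563_x_at rose 2.14-fold at 6 h.

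One CFLAR probe set followed a course of its own. Probe set 239629_at read 81.5, 114, 76.8 and 62.1 after 44 °C and 131, 265, 77.8 and 68.1 after 42 °C, against 75.3 in the control. It rose 3.52-fold at 1 h after 42 °C, the largest fold of any member probe set over the control, and was back near the control by 3 h. The other 11 sets ran from -0.44 to 0.67 in log2 on that array. Of the 12 sets, 9 carry the suffix that marks probes which may also match other transcripts. Many of the 12 read overlapping parts of the same transcripts, so their number does not count as independent evidence.

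CASP9, the initiator of the mitochondrial branch, changed little against the control. Probe set 210775_x_at ran from 79.7 to 92.1 after 44 °C and from 75.5 to 94.5 after 42 °C, against 81.5 in control cells. Probe set 203984_s_at ran from 78.3 to 99.0 after 44 °C and from 56.3 to 109 after 42 °C, against 73.6 in the control. In these sets no fold over the control passed 0.56 in size on the log2 scale, inside the yardstick of 0.91 to 1.05 at these signals. From 0 to 6 h after 42 °C the log2 fold was 0.95 by 203984_s_at and -0.23 by 210775_x_at. For 44 °C over 42 °C at 0 h it was 0.68 and -0.025 by the same sets. The third set, 240437_at, was above the floor on 1 array (21.9, at 1 h after 42 °C).

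Counted over all 34 probe sets, the rises of the 8 genes lay mostly at 6 h. At 6 h after 44 °C 5 of 34 were higher by 2-fold or more (4 of FAS and 1 of CASP8), or 14.7%, where 2.41% of all 41091 probe sets were, and 0 were lower, where 2.67% of all were. Many of all probe sets lie at the floor and cannot pass 2-fold: among the 18190 with a mean of at least 2 times the floor 4.24% were higher at 6 h after 44 °C and 4.19% at 6 h after 42 °C. At 6 h after 42 °C 5 of 34 were higher (3 of FAS, 1 of CASP8 and 1 of CFLAR), against 2.83% of all, and 0 were lower, against 2.35% of all. These comparisons share the control array. Most of the count comes from the several probe sets of FAS, and by gene it is FAS and CASP8 on both arrays and CFLAR through 1 of its sets on the 42 °C array. The median over the 26 member probe sets with a mean signal of at least 2 times the floor was 0.092 at 6 h after 44 °C and 0.53 after 42 °C, against -0.055 and -0.023 over the 18190 such probe sets of all genes.

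At earlier times the counts were small. At 0, 1 and 3 h after 44 °C 0 of 34 passed 2-fold in either direction, where 1.06, 0.995 and 1.12% of all probe sets were higher and 1.27, 0.562 and 1.57% lower. At 0 h after 42 °C 2 of 34 were lower (TNFRSF10B and CASP8), against 2.46% of all, and 0 were higher, against 1.08%. At 1 h after 42 °C 1 was higher (CFLAR), against 2.16% of all, and 1 lower (TNFRSF1A), against 1.47%. At 3 h after 42 °C 1 was lower (TNFRSF1A), against 2.83%, and 0 higher, against 1.92%. With the array at 0 h of the same temperature as baseline, 4 of 34 were higher at 6 h after 44 °C, where 3.14% of all were, all of them FAS, and 0 were lower, where 3.03% of all were. After 42 °C 9 of 34 were higher, where 4.53% of all were: 2 of FAS, 2 of CASP8 and 5 of CFLAR, and 0 were lower, where 2% were. Among the 18190 probe sets with a mean of at least 2 times the floor 5.90% were higher after 44 °C and 7.74% after 42 °C. The 42 °C count depended on the processing. For CFLAR it was 1 with quantile normalisation, 0 without scaling and 1 with log2(signal + 16). For FAS it was 0 under each of these, and for CASP8 it stayed 2.

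The arrays at 44 °C and 42 °C were also compared at the same recovery time. At 0 h HSPA6 had risen on the 42 °C array alone. Directly after heating, CASP8 by 207686_s_at (86.7 at 44 °C, 37.7 at 42 °C) and TNFRSF1A (935 at 44 °C, 460 at 42 °C) were 2.30-fold and 2.03-fold higher after 44 °C. The control read 79.7 for the CASP8 set and 773 for TNFRSF1A, so the 42 °C values lay below it. The sets higher after 44 °C were 2 of 34, against 1.83% of all probe sets, and 0 were lower, against 0.842%. FADD had a log2 fold of 0.74 on the same arrays and CASP8 by 213373_s_at 0.72. At 1 h TNFRSF1A had a log2 fold of 0.85, and CFLAR by 239629_at was 2.32-fold lower after 44 °C, the 1 lower of 34, against 1.47% of all, with 0 higher, against 1.07%. At 3 h CASP8 by 207686_s_at was 2.25-fold lower (43.2 at 44 °C, 97.4 at 42 °C), against 1.01% of all, while 213373_s_at had a log2 fold of 0.53, and 0 of 34 were higher, against 1.04%.

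At 6 h 0 of 34 probe sets differed by 2-fold between the temperatures, where 0.852% of all were higher and 1.82% lower. CFLAR was lower after 44 °C by all 12 of its expressed probe sets, with a median log2 fold of -0.49 and a range of -0.97 to -0.12. The median lay inside the yardstick of 0.91 to 1.24 at these signals, and the lowest fold, -0.97, lay past 0.91. Of the 18190 probe sets with a mean of at least 2 times the floor 51.5% were below 0 in this comparison. The 12 CFLAR sets read 1 gene on the same pair of arrays and are not independent. The direction held in 12 of 12 sets after quantile normalisation (median -0.40) and in 11 of 12 with a floor 3 times higher, and in the deposited signals without scaling it turned, with 2 of 12 below 0 (median 0.33), where the deposited trimmed means were 191 at 44 °C and 109 at 42 °C. FAS and CASP8, with rises at 6 h after both temperatures, had medians of 0.15 and -0.14.

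**Figure D4:**
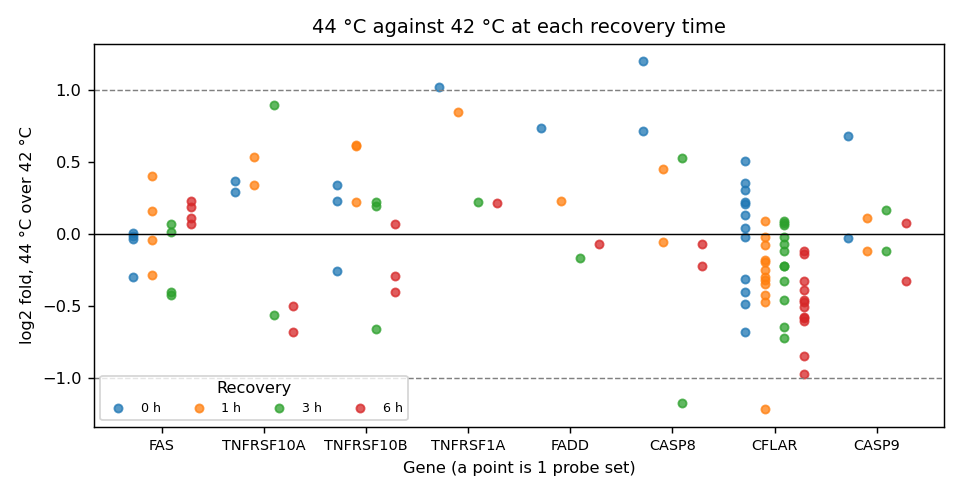
log2 fold of 44 °C over 42 °C at 0, 1, 3 and 6 h (colours) for every probe set above the floor on all arrays, by gene; dashed lines mark 2-fold. All 12 CFLAR points at 6 h lie below 0, and the TNFRSF1A point at 0 h lies at 1.02.

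Other genes of the pathway were read through the brightest probe set of each gene in 7 lists. Of 66 listed genes 59 were measured through a probe set with a single symbol. At 6 h after 44 °C 5 of 59 were higher, where 2.50% of all 19775 genes were, and 1 was lower, where 2.64% were. At 6 h after 42 °C 6 were higher, against 2.57% of all, and 1 lower, against 2.37%. At 0, 1 and 3 h after 44 °C 0, 0 and 2 were higher, where 0.855, 0.925 and 1.16% of all genes were, and 0 were lower, where 1.03, 0.455 and 1.41% were. At 0, 1 and 3 h after 42 °C 1, 4 and 4 were higher, where 0.925, 1.88 and 1.97% were, and 2, 0 and 3 were lower, where 2.40, 1.53 and 3.08% were. Over the 42 of the 59 above the floor on all arrays the median log2 fold over the control lay between 0.059 and 0.11 after 44 °C and between -0.080 and 0.16 after 42 °C, against -0.056 to 0.022 and -0.041 to 0.0057 over all 9911 such genes.

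The receptor with the largest rise was a decoy. TNFRSF10D, which binds TRAIL without a working death domain, read 96.9, 162, 387 and 438 at 0, 1, 3 and 6 h after 44 °C and 147, 295, 567 and 230 after 42 °C, against 99.2 in control cells. It rose 3.90-fold and 4.41-fold at 3 and 6 h after 44 °C, and 2.97-fold, 5.71-fold and 2.32-fold at 1, 3 and 6 h after 42 °C. Its other probe set had log2 folds of 1.24 and 1.90 at 3 and 6 h after 44 °C and of 0.99, 2.21 and 1.68 at 1, 3 and 6 h after 42 °C. TNFRSF1B, the second receptor for TNF, moved the other way, with 158, 159, 120 and 83.4 after 44 °C and 127, 123, 103 and 100 after 42 °C, against 218 in the control. It fell 2.62-fold at 6 h after 44 °C, and 2.12-fold and 2.18-fold at 3 and 6 h after 42 °C. All 8 heated arrays lay below the control for TNFRSF1B. These were the 2 genes that changed among 7 measured decoy and other receptors, where 13.8% of all genes changed on 1 or more heated arrays.

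Among 16 measured adaptors and ubiquitin editors 4 rose on 1 or more heated arrays and 0 fell, where 6.13% of all genes rose and 7.95% fell on 1 or more. TNFAIP3, the A20 enzyme that restrains signalling from TNFRSF1A, read 89.6, 135, 197 and 207 after 44 °C and 246, 432, 231 and 226 after 42 °C, against 97.6 in the control. Its course after 42 °C peaked at 1 h (4.43-fold) and after 44 °C reached 2.12-fold at 6 h, where its other probe set had a log2 fold of 0.79. The deubiquitinases CYLD and OTULIN rose 2.38-fold and 2.89-fold at 6 h after 44 °C, and 3.28-fold and 2.04-fold at 6 h after 42 °C. The other probe sets of CYLD ran from 0 to 1.16 in log2 after 44 °C and from 0 to 1.35 after 42 °C, and those of OTULIN from 0.25 to 1.94 and from -0.14 to 1.86. SHARPIN, part of the linear ubiquitin ligase, rose 2.38-fold at 1 h and 2.07-fold at 3 h after 42 °C. Its only probe set was dim, where the yardstick was 1.13. The log2 fold at 1 h (1.25) passed it and that at 3 h (1.05) did not.

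Of 7 other caspase genes measured, CASP1, the inflammatory caspase that matures IL-1 beta, rose at 6 h. It read 213, 200, 237 and 382 after 44 °C and 289, 284, 314 and 419 after 42 °C, against 179 in control cells, a rise of 2.14-fold after 44 °C and 2.35-fold after 42 °C at 6 h. All 8 heated arrays were above the control. Its 4 other probe sets had log2 folds of 1.04 to 1.82 at 6 h after 44 °C and of 0.93 to 1.24 after 42 °C. CASP10, a relative of caspase-8, fell at least 2.05-fold at 3 h after 42 °C, where its signal was at the floor, and its 3 other probe sets ran from 0 to 0.93.

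**Figure D5:**
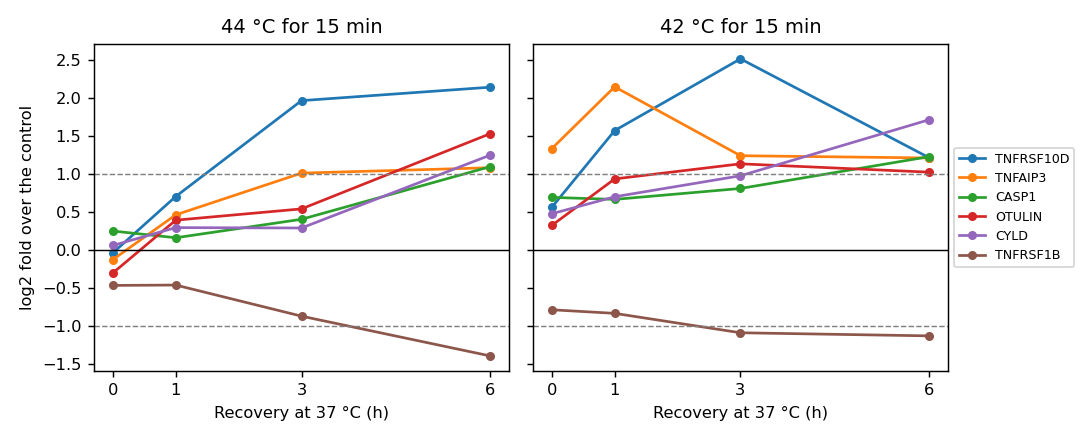
log2 fold over the control against hours of recovery for 6 genes of the pathway outside the 8, brightest probe set of each, after 44 °C (left) and 42 °C (right); dashed lines mark 2-fold. TNFRSF10D peaks at 6 h after 44 °C (2.14) and at 3 h after 42 °C (2.51), and TNFRSF1B ends below -1 on both sides.

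On the mitochondrial side, of 8 apoptosome and mitochondrial genes 0 rose and 0 fell on any heated array, with log2 folds from -0.62 to 0.68. All 8 were above the floor on all arrays. Of the 9911 such genes 19.5% changed on 1 or more heated arrays, and of all genes 13.8%, so a count of 0 among 8 does not set this list apart. APAF1, the scaffold of caspase-9, read 90.8, 116, 98.7 and 136 after 44 °C and 88.5, 115, 121 and 108 after 42 °C, against 85.0 in the control. BID, the caspase-8 substrate that links both branches, ran from 573 to 857 after 44 °C and from 700 to 853 after 42 °C, against 640 in the control. Of 10 caspase substrates 0 rose and 0 fell, and of 5 caspase inhibitors 1 fell. These lists are too short to be read against those shares. XIAP was the inhibitor that fell, 2.03-fold at 0 h after 42 °C. Of its 6 other probe sets 1 fell by 2-fold or more there, and they ran from -1.35 to 0.83. Among 6 death ligands LTB rose 2.96-fold at 1 h and 2.95-fold at 6 h after 42 °C, while its other probe set had -0.49 and -0.71. TNF fell 2.07-fold at 0 h and at least 4.19-fold at 3 h after 42 °C. The log2 fold of TNF at 0 h (-1.05) lay inside the yardstick of 1.24 at these dim signals. TNFSF10, which encodes TRAIL, ran from 31.4 to 64.8 after 44 °C and from 26.9 to 70.8 after 42 °C, against 41.6 in the control.

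The genes with the courses most like those of the members were found among 9910 genes above the floor on all arrays, by the root mean square difference of log2 folds over the 8 heated arrays, for the 4 members whose brightest probe set passed 2-fold on a heated array. All of these folds share the control. For FAS the nearest were NARF (0.14), RIT1 (0.16) and HINT3 (0.18), and for CASP8 they were DYNC1LI2 (0.19), RELCH (0.21) and STAM (0.24). For TNFRSF1A they were LINC01128 (0.17), ZNRF3 (0.20) and MROCKI (0.20), and for TNFRSF10B TMEM268 (0.18), TTC7B (0.20) and RDH11 (0.21). NARF had log2 folds of 1.204 at 6 h after 44 °C and 1.13 at 6 h after 42 °C, where the brightest FAS probe set had 1.15 and 0.96.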

How the data were processed

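Per the labels, total RNA of U937 cells was amplified from its 3′ ends, labelled with biotin and hybridised to Human Genome U133 Plus 2.0 arrays, 1 per condition. The authors deposited 1 linear intensity for each of 54675 probe sets on every array, made with MAS5 per the submitters' processing notes. Which target MAS5 scaled to is not given in the sources used here.

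A factor of 0.474 to 0.989 per array set its mean, trimmed by 2% at either end and without the 62 control probe sets, to 100, which takes it that most signals did not change. The median of all scaled values served as a floor before log2, so folds of dim probe sets are understated. Probe sets were named from the platform annotation, in which 1801 have several symbols and 11777 are not listed. Of the 41091 with 1 symbol, 41037 matched RefSeq by gene number. A gene outside the 8 was read through its brightest probe set by mean log2 signal. No test was run, since no condition has a spread of its own, and 2-fold was the size rule for 8 comparisons with the control and 4 of 44 °C with 42 °C. Rules for named genes covered all probe sets of the 8 members, list genes past 2-fold, APAF1, XIAP, BID and TNFSF10, heat response genes and the 3 nearest courses per member. The members, lists and alternatives were chosen with earlier results of these data known. The number of arrays limits the precision. The calculations ran in Python 3.11.15 with numpy 2.4.6 and pandas 2.3.3, figures were drawn with matplotlib 3.10.9, and the calculations were tested on simulated data.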

Additional observations from a re-analysis of the deposited data

How the results depend on the processing

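Over the 8 comparisons with the control and the 4 of 44 °C with 42 °C, 19 pairs of a member probe set and a comparison passed 2-fold, and none of them changed direction under quantile normalisation, the deposited signals without scaling, a floor at the 25th percentile, a floor 3 times higher or log2(signal + 16). Of the 19, 17 stayed past 2-fold with quantile normalisation, 12 without scaling, 19 with either other floor and 11 with the pseudocount of 16. The probe sets of these 19 lay above the floor on all arrays. The floor at the 25th percentile therefore could not change their folds and is no check of them. The calls lost with quantile normalisation were TNFRSF10B (-0.98) and CASP8 by 207686_s_at (-0.94), both at 0 h after 42 °C. Without scaling the FAS and CASP8 rises at 6 h after 42 °C were under 2-fold (FAS 0.35 to 0.84, CASP8 0.37 and 0.47), where the 42 °C array at 6 h has a deposited trimmed mean of 109, against 165 for the control. The rises of FAS over the control at 6 h after 44 °C stayed past 2-fold in all 4 expressed probe sets under each of these settings, while over the array at 0 h 1 of 4 did with the pseudocount. That of CASP8 after 44 °C had a log2 fold of 0.96 with the pseudocount.

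Higher calls after 44 °C numbered 5, and 12 with the 25th percentile floor, 2 with the brightest probe set per gene, 1 with the median of a gene's probe sets and 9 at 1.5-fold. Lower calls after 44 °C numbered 0, and 1 with the 25th percentile floor, 13 at 1.5-fold and 2 over the array at 0 h. Higher calls after 42 °C numbered 6, and 1 without scaling, 16 with the 25th percentile floor, 1 with the brightest probe set, 1 with the median of probe sets, 20 at 1.5-fold and 11 over the array at 0 h. Lower calls after 42 °C numbered 4, and 2 with quantile normalisation, 9 without scaling, 2 with the pseudocount, 2 with the median of probe sets, 15 at 1.5-fold and 0 over the array at 0 h. For 44 °C over 42 °C, higher calls numbered 2, and 22 without scaling, 7 with the 25th percentile floor, 0 with the pseudocount, 1 with the brightest probe set, 1 with the median and 10 at 1.5-fold. Lower calls there numbered 2, and 0 without scaling, 8 with the 25th percentile floor, 1 with the pseudocount, 0 with the brightest probe set, 0 with the median and 11 at 1.5-fold. Counts by gene are smaller because fewer values are counted, and a lower floor adds calls of dim probe sets. No paired analysis was possible by replicate number because the labels give none, and the arrays at 44 and 42 °C of the same recovery time were compared one time at a time. Leaving out an array leaves none of its condition.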
